A study of Mus musculus with 24 samples.

Results

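Cyclins and the cyclin-dependent kinases they switch on were followed in 12 primary mouse B-cell lymphomas that had been treated with Adriamycin (ADR, doxorubicin) or left untreated. The genes were chosen by name: Ccna2, Ccnb1, Ccnb2, Ccnd1, Ccnd2, Ccnd3, Ccne1, Ccne2, Cdk1 and Cdk2. Every probe set that the array annotation gave to 1 of these genes alone was used. Of the 10 genes, 9 had such a probe set, with 22 probe sets between them, out of 34945 single-gene probe sets of 18193 genes on the array. Ccnb1 had none in the annotation used and is not analysed here.

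The ADR group held 12 arrays of lymphoma cells exposed in culture to 0.05 µg/ml ADR, a DNA-damaging drug, for 5 days. The untreated group held 12 arrays of the same 12 lymphomas without the drug. All cells came from lymph nodes of Eμ-Myc transgenic mice, in which the Myc oncogene is driven in the B-cell lineage. Both groups also carried a retroviral Bcl2 gene, which blocks apoptosis, had been selected with puromycin, and grew on a feeder layer of gamma-irradiated NIH 3T3 mouse fibroblasts. Each lymphoma gave 1 array per group, so the lymphoma is the replicate, and the matched pairs come from the lymphoma number in the titles. Array file names used "sen" for 5 lymphomas (403, 1467, 1570, 2581 and 5560) and "DOX" for the other 7, and results are also given for each set. Under senescence induction, the treated array of lymphoma 1467 was labelled "yes" and the other 11 treated arrays "TIS". The labels state neither strain nor age of the mice. The comparison asks how transcripts of treated cells differed from those of untreated cells of the same lymphoma.

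Cyclins bind cyclin-dependent kinases, activate them and help to choose their substrates. In the textbook order of the cell cycle, D-type cyclins act early in G1 in response to growth signals, E-type cyclins with Cdk2 act at entry into S phase, cyclin A2 acts with Cdk2 and Cdk1 through S phase and G2, and B-type cyclins with Cdk1 drive mitosis. Transcripts of the E, A and B cyclins rise and fall with the cycle, while those of the D-type cyclins follow growth factor signals more than cycle phase. Normal B cells mainly use cyclins D2 and D3.

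Values are log2 expression after robust multi-array averaging (RMA), so a difference of 1 is a doubling. Changes are ADR minus untreated. Array medians lay between 4.38 and 4.47, and probe sets at or below 4.47 lie near the floor, where RMA compresses changes. The threshold for a call was an adjusted p of 0.05 in limma's moderated paired test over all 34945 single-gene probe sets. Each gene is described by its main probe set, the one with the highest mean, and its other probe sets stand beside it. Levels of different probe sets cannot be compared with each other, because probes bind with different strength.

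Marker levels of fibroblasts and macrophages moved with treatment. B-cell markers were present in all arrays, with none of 11 measured markers near the floor. Their mean level per array ranged from 6.80 to 9.96 in ADR arrays and from 8.42 to 9.45 in untreated arrays, and 5 of the 11 fell (Cd79a, Ebf1, Cd22, Fcrla and Vpreb3). Of 27 fibroblast markers 23 rose. Their mean level ranged from 4.68 to 9.24 in ADR arrays and from 4.30 to 5.18 in untreated arrays, with 2 of the 27 near the floor on average in ADR arrays and 13 in untreated arrays. Of 19 macrophage markers 14 rose, with means from 6.21 to 9.37 in ADR arrays and from 4.96 to 8.35 in untreated arrays, with 2 of the 19 near the floor in ADR arrays (Mrc1 and C1qa) and 4 in untreated arrays (these and C1qb and C1qc). Of 10 neutrophil markers 4 rose (S100a8, Lcn2, Mmp8 and Mmp9) and 6 were not called. Near the floor were 4 of the 10 in ADR arrays (S100a9, Elane, Mpo and Ngp) and 5 in untreated arrays (these and Camp). Of 11 T and NK cell markers 2 were called higher, a share near the 13.4% of all genes: Il7r, and Gzma, which is near the floor (3.92 in ADR arrays and 3.75 in untreated arrays). Neither was called without the lymphoma block. In such bulk samples, fewer cells of a type and less RNA per cell cannot be told apart. Beyond the marker covariates and the correlations with marker changes given below, the part of other cells in the results was not tested.

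The cyclins and kinases did not all move the same way after ADR. All 6 measured genes of S phase and mitosis (Ccna2, Ccnb2, Cdk1, Ccne1, Ccne2 and Cdk2) fell, each in 12 of 12 lymphomas. Of the 3 D-type cyclins, Ccnd1 and Ccnd2 rose. Ccnd3 did not pass the test on its main probe set, where it changed by -0.29 and was lower in 9 of 12 lymphomas. Over all probe sets of the 9 genes, 9 of 22 were called lower and 9 of 22 higher, against 12.5% and 11.3% of all single-gene probe sets (23.8% either way). On main probe sets 8 of the 9 genes were called, against 25.9% of all genes. Of the 9 probe sets called higher, 7 read the same gene, Ccnd2. Lower values in 12 of 12 lymphomas were found for 8 of the 22 probe sets, against 3.74% of all, and higher values in 12 of 12 for 0 of the 22, against 2.44%. In 0 of the 22 did all ADR arrays lie below all untreated arrays, which 0.238% of all probe sets did, or above them, which 0.0315% did. The median change of the 9 main probe sets was -1.07, beside -0.01 for the main probe sets of all 18193 genes. These genes were chosen with earlier results of the same arrays known.

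**Figure D1:**
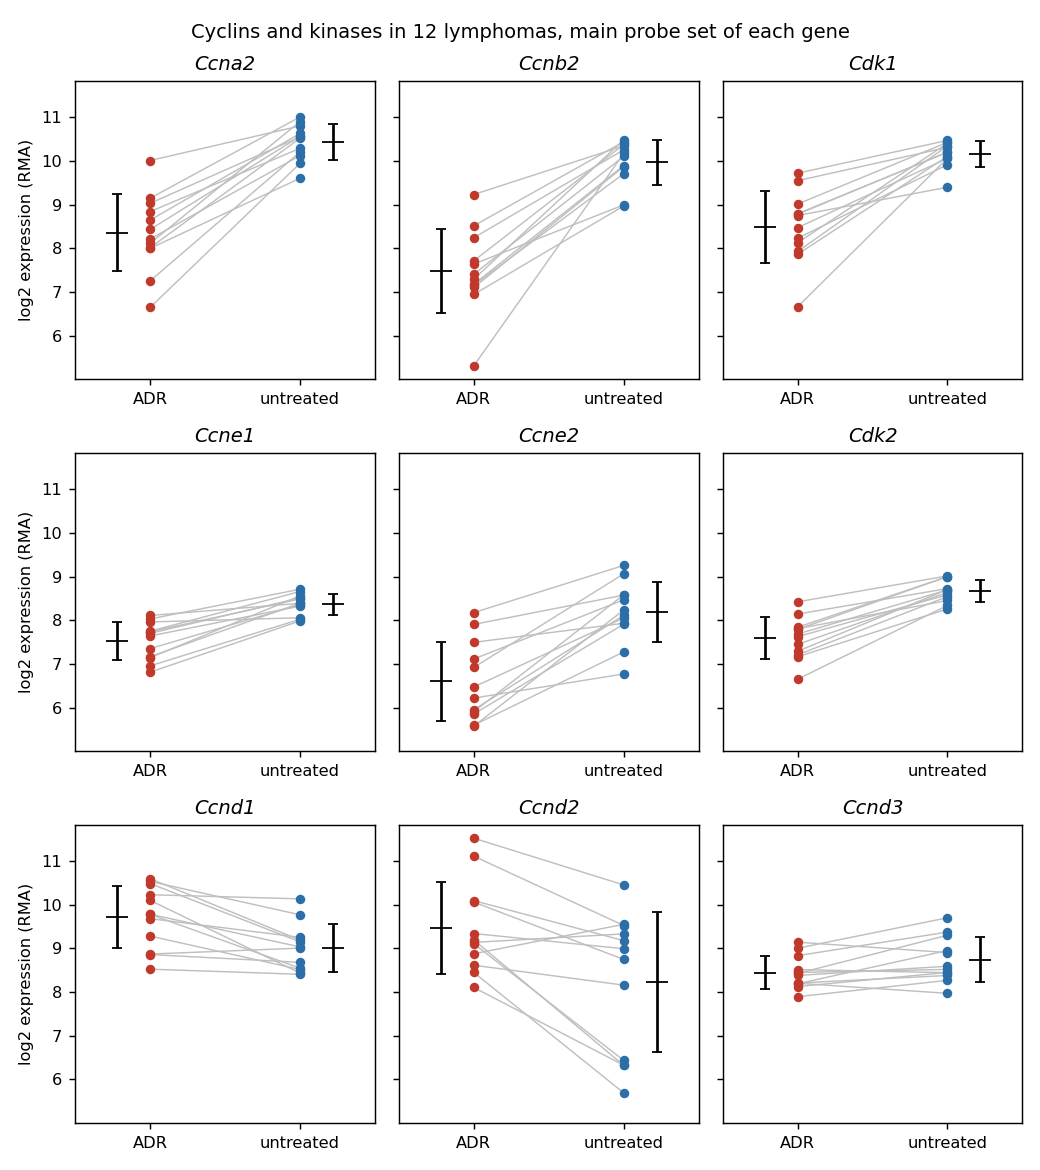
Log2 expression (vertical axis, RMA values) of the main probe set of 9 genes in ADR (red, left) and untreated (blue, right) arrays of 12 lymphomas; grey lines join the arrays of 1 lymphoma, and black bars give the mean ± SD (n = 12). The red points lie lower than their blue partners for every lymphoma in the 6 panels of Ccna2, Ccnb2, Cdk1, Ccne1, Ccne2 and Cdk2, while most lines run the other way for Ccnd1 and Ccnd2.

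Among the mitotic genes, Ccnb2 encodes cyclin B2, a partner of Cdk1, and Cdk1 encodes the kinase that drives entry into mitosis. Ccna2 encodes cyclin A2, which acts in S phase and G2. The promoters of Ccnb2 and Cdk1 are printed because these genes fell together and because a known pairing of elements recurs in promoters of genes transcribed in G2 and mitosis: the CCAAT box, bound by NF-Y, and the cell cycle genes homology region (CHR), bound by the MuvB complex. RefSeq promoter windows, 250 bases before to 50 bases after the annotated start, were found for 5 of the 9 genes: Ccnb2, Ccnd3 (with 2 windows), Ccne1, Cdk1 and Cdk2. Capitals mark matches, on either strand, to any motif searched. These were the CCAAT box, spelled by its name. The CHR was searched as TTTGAA and, in a second form, as TTCGAA. An E2F-type element was searched as TTCCCGC and in the related form TTCGCGC, and with other middle letters as TTGCCGC and in the form TTGGCGC. The E-box, which Myc can bind, was searched as CACGTG. The Ccnb2 window is chr9:70421505-70421804 and the Cdk1 window chr10:69352863-69353162, both on the minus strand of GRCm38.p6 and written 5′ to 3′.
Ccnb2: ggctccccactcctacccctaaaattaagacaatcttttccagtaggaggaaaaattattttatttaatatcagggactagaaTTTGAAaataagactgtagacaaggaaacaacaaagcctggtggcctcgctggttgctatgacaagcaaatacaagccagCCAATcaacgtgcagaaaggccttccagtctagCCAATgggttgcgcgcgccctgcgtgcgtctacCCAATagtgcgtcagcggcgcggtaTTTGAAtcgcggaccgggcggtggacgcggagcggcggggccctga
Cdk1: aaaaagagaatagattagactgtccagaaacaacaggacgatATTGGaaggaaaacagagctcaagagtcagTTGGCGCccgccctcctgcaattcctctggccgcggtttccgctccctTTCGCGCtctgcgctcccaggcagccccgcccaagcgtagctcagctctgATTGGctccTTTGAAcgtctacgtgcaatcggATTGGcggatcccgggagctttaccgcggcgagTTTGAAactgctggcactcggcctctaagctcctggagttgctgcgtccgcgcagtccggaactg
The Ccnb2 window held 3 CCAAT boxes, starting 87, 54 and 21 bases before the start, and 2 CHR matches, 167 bases before and 4 bases after it. The Cdk1 window held 3 CCAAT boxes, at 208, 80 and 48 bases before the start, 2 CHR matches at 71 and 15 bases before it, and 2 E2F-type matches. A CCAAT box and a CHR match occurred together in 7.52% of the 32851 RefSeq promoter windows, a CCAAT box in 37.4%, a CHR match in 19.2%, an E2F-type match in 9.57% and an E-box in 7.15%. No match overlapped a match to another motif in these 2 windows. A match to such letters is a description and does not show that a factor binds there.

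Ccnb2 showed the largest fall of the 9 genes. Its level in ADR arrays had a lowest value of 5.31, a median of 7.35 and a highest of 9.24, against 8.97, 10.14 and 10.49 in untreated arrays. In 11 of 12 lymphomas the ADR value lay below every untreated array, and the exception was lymphoma 3802 at 9.24. It averaged 7.48 ± 0.96 in ADR arrays and 9.97 ± 0.52 in untreated arrays (SD, n = 12 each). This was a 5.63-fold fall (log2 change -2.49, SE 0.25, limma adjusted p = 2.59e-05).

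Ccna2 fell on both of its probe sets. On the main one, ADR arrays ran from 6.65 through a median of 8.32 to 10.01, and untreated arrays from 9.61 through 10.54 to 11.01. Again 11 of 12 ADR values lay below all untreated values, with lymphoma 3802 the exception. The fall was 4.19-fold (log2 change -2.07, SE 0.19, limma adjusted p = 1.72e-05), and 4.92-fold on the second probe set (adjusted p = 3.14e-05). The per-lymphoma changes of the 2 probe sets had a correlation of 0.936 over 12 lymphomas, given as a description.

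Cdk1 fell in 12 of 12 lymphomas as well. Its ADR values had a lowest of 6.66, a median of 8.61 and a highest of 9.72, while untreated values lay closer together, at 9.40, 10.21 and 10.48. In 10 of 12 lymphomas the treated level was below every untreated array. The level was 8.49 ± 0.82 in ADR arrays and 10.16 ± 0.29 in untreated arrays (SD, n = 12), 3.18-fold lower (log2 change -1.67, SE 0.21, limma adjusted p = 0.000111). By SD, spread between lymphomas was wider after treatment for Ccna2, Ccnb2 and Cdk1, and also for Ccne1, Ccne2, Cdk2 and Ccnd1. It was narrower for Ccnd2 (1.04 in ADR and 1.60 in untreated arrays) and Ccnd3 (0.38 and 0.51). The difference in spread was not tested.

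The size of the fall differed between lymphomas. Lymphoma 2949 had the largest falls of Ccna2 (-3.30), Ccnb2 (-4.86) and Cdk1 (-3.41), and also of Ccne2 (-2.68). Lymphoma 3802 had the smallest falls of Ccna2 (-0.79), Ccnb2 (-1.11) and Ccne2 (-0.44). Cdk1 fell least in lymphomas 5560 (-0.65), 3802 (-0.75) and 403 (-0.76). Lymphomas 5560 and 403 had the largest fibroblast marker changes, 4.21 and 4.42, and their Ccnb2 changes were -2.03 and -2.67. Mki67, which encodes Ki-67 and marks cycling cells, fell 5.09-fold over the 12 lymphomas (adjusted p = 2.2e-05).

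**Figure D2:**
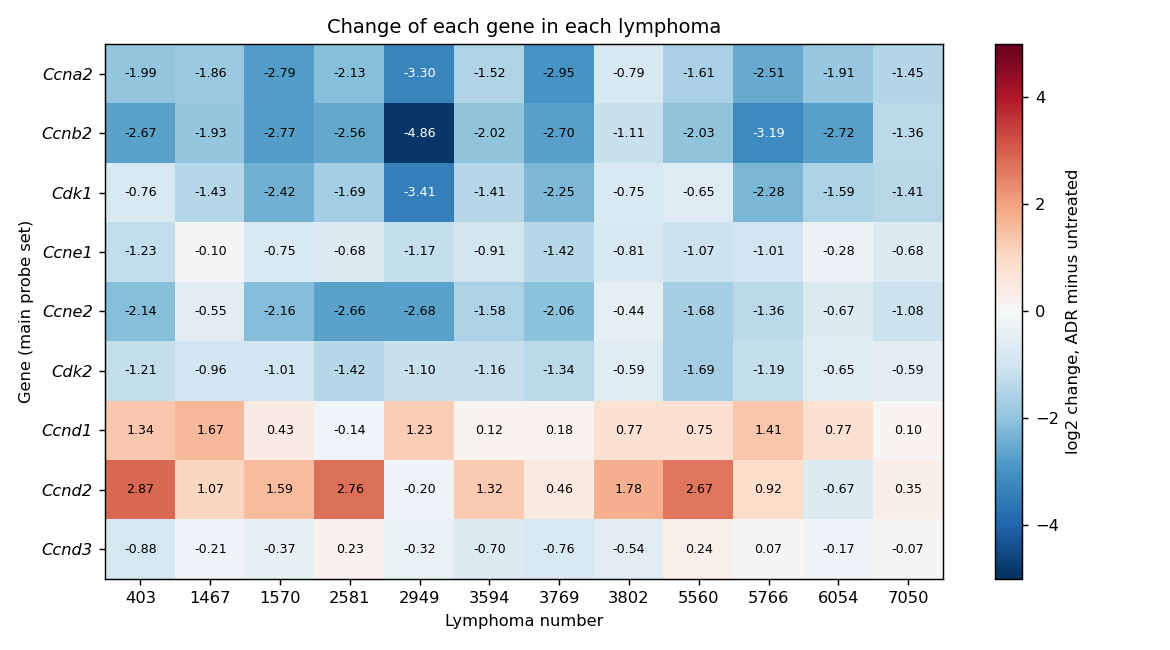
Log2 change, ADR minus untreated, of the main probe set of each gene (rows) in each lymphoma (columns, by lymphoma number); blue cells are lower and red cells higher after ADR, on a scale from -5 to 5. The upper 6 rows are blue throughout, with the strongest fall for Ccnb2 in lymphoma 2949 (-4.86), and the Ccnd2 row is red except in lymphomas 2949 (-0.20) and 6054 (-0.67).

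The genes whose change over the 12 lymphomas was most like that of the mitotic members were searched among 5678 other genes whose mean was above the highest array median and whose change varied more than that of the median such gene. Cdk1 was most alike to Spag5 (Pearson r = 0.971), Ttk (0.960) and Ect2 (0.959), genes of the spindle, the spindle checkpoint and cell division. Ccnb2 was most alike to Cdca3 (0.955), Kif23 (0.945) and Ube2c (0.934), and Ccna2 to Plk1 (0.963), Aurkb (0.944) and Lig1 (0.941). These are descriptions over 12 points that share arrays and treatment.

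For entry into S phase, Ccne1 and Ccne2 encode the E-type cyclins, which activate Cdk2. The promoter windows of Cdk2 (chr10:128705002-128705301, minus strand) and Ccne1 (chr7:38107441-38107740, minus strand, both GRCm38.p6) are printed beside those of the mitotic genes because they held no CHR match.
Cdk2: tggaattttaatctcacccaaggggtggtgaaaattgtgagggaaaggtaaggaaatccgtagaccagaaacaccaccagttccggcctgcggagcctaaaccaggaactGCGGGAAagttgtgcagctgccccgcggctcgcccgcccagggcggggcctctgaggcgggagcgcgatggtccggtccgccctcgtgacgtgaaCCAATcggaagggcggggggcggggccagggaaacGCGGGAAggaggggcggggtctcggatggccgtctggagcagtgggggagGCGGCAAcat
Ccne1: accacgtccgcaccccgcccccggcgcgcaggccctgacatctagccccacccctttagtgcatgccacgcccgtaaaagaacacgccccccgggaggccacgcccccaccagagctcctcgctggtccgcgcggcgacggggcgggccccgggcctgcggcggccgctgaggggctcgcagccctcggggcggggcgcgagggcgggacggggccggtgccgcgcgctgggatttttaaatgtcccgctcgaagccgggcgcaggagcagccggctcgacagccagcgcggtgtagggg
In Cdk2 the capitals mark 1 CCAAT box, 45 bases before the start, and 3 E2F-type matches, at 140 and 10 bases before and 40 bases after it. The Ccne1 window held 0 matches to the motifs searched, which says only that these letters are not in this window. Of the Ccnd3 windows, 1 held a single CCAAT box and the other 0 matches. A CHR match occurred in 19.2% of all RefSeq windows, so its absence is common and sets no class of genes apart.

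Ccne2 fell 3.01-fold (log2 change -1.59, SE 0.21, limma adjusted p = 0.000127). Its ADR arrays ran from 5.57 through a median of 6.34 to 8.17, and its untreated arrays from 6.77 through 8.17 to 9.26. Groups overlapped more than for the mitotic genes, with 7 of 12 ADR values below all untreated ones. Lymphoma 1467 was the lowest untreated array (6.77) and had a change of -0.55.

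Ccne1 was more even between lymphomas. ADR values lay at 6.81, 7.67 and 8.11 (lowest, median and highest), against 7.98, 8.39 and 8.71 in untreated arrays, and 10 of 12 lay below all untreated values. The fall was 1.79-fold (log2 change -0.84, SE 0.11, limma adjusted p = 9.9e-05). The main probe set carries the suffix _x_at, by which Affymetrix marks probes that can bind other transcripts. The second probe set, without that suffix, was 1.91-fold lower (adjusted p = 4.5e-05). Changes per lymphoma ran from -1.42 in lymphoma 3769 to -0.10 in 1467.

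Cdk2, the kinase partner of the E cyclins and cyclin A2, had the smallest spread of change between lymphomas of the 9 main probe sets (SD 0.34). Its ADR arrays ran from 6.65 through 7.65 to 8.42 and its untreated arrays from 8.26 through 8.67 to 9.02, with 11 of 12 ADR values below all untreated ones. It was 2.11-fold lower (log2 change -1.07, SE 0.10, limma adjusted p = 1.55e-05), and single lymphomas changed by -1.69 to -0.59. The second Cdk2 probe set averaged 2.64 in ADR arrays and 2.58 in untreated arrays, below every array median (change 0.06, adjusted p = 0.497).

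Among the genes most like these, Ccne2 was most alike to E2f8 (r = 0.885), Dek (0.856) and Mcm5 (0.844), Ccne1 to Lpar6 (0.849), Il12a (0.827) and Ralgps2 (0.816), and Cdk2 to Bora (0.834), Creb1 (0.819) and Ccnh (0.809), over 12 lymphomas. E2f8 is a repressor of the E2F family and Mcm5 a subunit of the replicative helicase.

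The first of the D-type cyclins, Ccnd1, encodes cyclin D1. On its main probe set, ADR arrays ran from 8.52 through a median of 9.78 to 10.60, and untreated arrays from 8.41 through 9.02 to 10.13. Values were higher in 11 of 12 lymphomas, the exception being lymphoma 2581 (-0.14), and 4 ADR values lay above all untreated ones. Ccnd1 rose 1.64-fold (log2 change 0.72, SE 0.16, limma adjusted p = 0.00486). Of its 3 probe sets, a second rose 1.70-fold (adjusted p = 0.00288) and the third had a change of 0.41, higher in 7 of 12 lymphomas, that did not pass (adjusted p = 0.187). Changes of the 3 probe sets had correlations between 0.696 and 0.922 over the 12 lymphomas.

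Ccnd2, which encodes cyclin D2, varied most between untreated lymphomas. Lymphoma 2581 had 8.45 in its ADR array and 5.69 in its untreated array, lymphoma 403 had 9.19 with ADR and 6.32 untreated, 3802 had 8.10 with ADR and 6.32 untreated, and 5560 had 9.11 with ADR and 6.43 untreated. The other 8 untreated arrays lay between 8.16 and 10.45. The changes of these 4 lymphomas (2.76, 2.87, 1.78 and 2.67) were the 4 largest. A change contains the untreated value, so this relation was not tested. In all, ADR arrays ran from 8.10 through 9.17 to 11.52 and untreated arrays from 5.69 through 8.87 to 10.45, with SDs of 1.04 and 1.60. The rise was 2.37-fold (log2 change 1.24, SE 0.30, limma adjusted p = 0.0086), in 10 of 12 lymphomas.

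All 7 Ccnd2 probe sets were called higher, with log2 changes from 0.57 to 1.70 and adjusted p from 0.00229 to 0.0367. The smallest changes, 0.57 and 0.60, came from the 2 probe sets with the lowest levels, which averaged 5.11 and 5.13 in ADR arrays and 4.55 and 4.54 in untreated arrays, close to the floor. Correlations between the changes of 2 probe sets of Ccnd2 lay between 0.103 and 0.979 over 12 lymphomas, with a median of 0.716 over 21 pairs. The probe sets thus gave the same direction and unequal sizes.

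**Figure D3:**
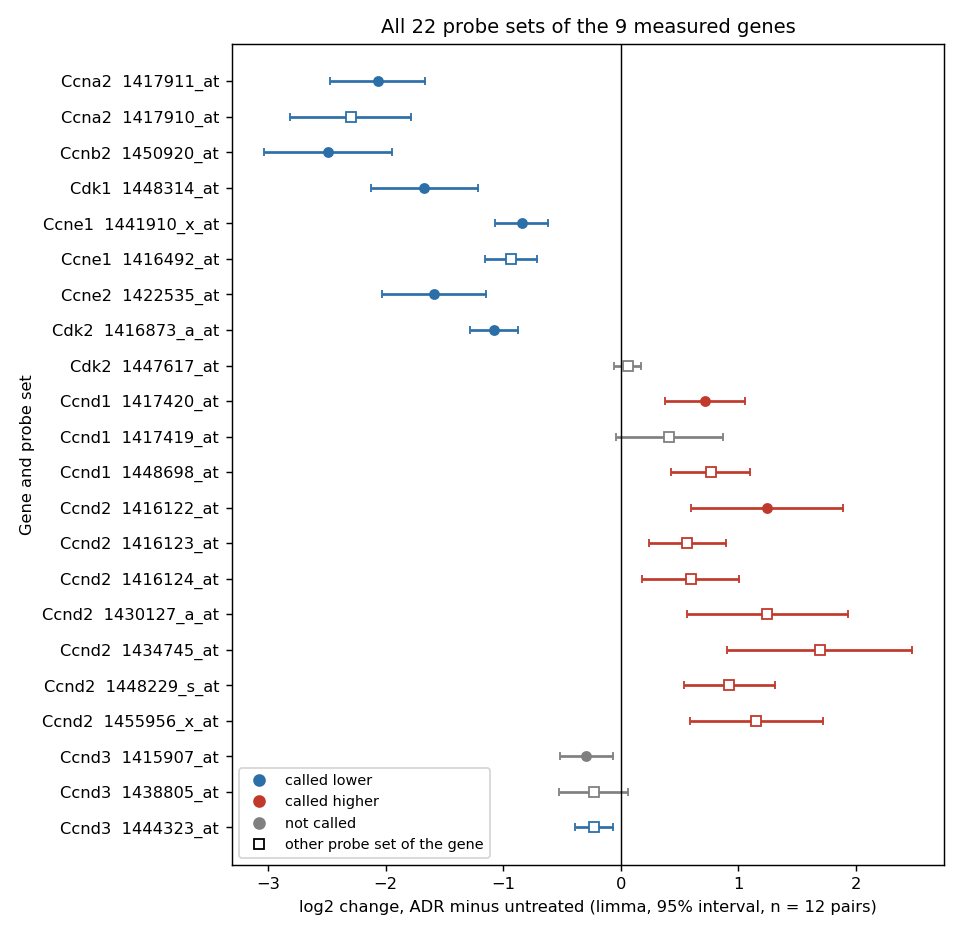
Log2 change, ADR minus untreated (horizontal axis), of all 22 probe sets of the 9 genes (rows), with limma's 95% interval over 12 pairs; filled circles are main probe sets, open squares the other probe sets, and colour gives the call. All 7 Ccnd2 probe sets lie right of 0, and the Cdk2 probe set near the floor lies at 0.06.

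Ccnd3, which encodes cyclin D3, had the smallest change. On the main probe set, ADR arrays ran from 7.89 through 8.40 to 9.14 and untreated arrays from 7.97 through 8.55 to 9.70. Only 1 ADR value lay below all untreated ones, and values were lower in 9 of 12 lymphomas. The change of -0.29 (SE 0.10, 95% interval -0.51 to -0.07) did not pass after adjustment (adjusted p = 0.0571), and it did pass in 4 of 24 other settings. Of its other probe sets, 1 was called lower by a small amount (-0.23, adjusted p = 0.0422) and 1, near the floor, was not (-0.23, adjusted p = 0.268).

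By the same measure of likeness, Ccnd1 was most alike to Pdzd8 (r = 0.952), Znrf3 (0.887) and Dnph1 (0.870) over 12 lymphomas. Ccnd2 was most alike to Acadvl (0.883), Hook2 (0.882) and Ap4b1 (0.874), and Ccnd3 to Nfatc2 (0.766), Gpr84 (0.753) and Xbp1 (0.736).

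Differences between related genes were tested directly, on the per-lymphoma changes, with exact permutation of their signs (two-sided). It was run on 5 pairs and its p-values adjusted over them; the smallest p it allows with 12 lymphomas is 0.000488. Ccnd1 changed by 1.01 more than Ccnd3 (SD 0.72, higher in 11 of 12 lymphomas, exact p = 0.00146, adjusted p = 0.00326). Ccnd2 also changed by more than Ccnd3, by 1.53 (SD 1.20, 11 of 12, exact p = 0.00195, adjusted p = 0.00326). Between Ccnd1 and Ccnd2 the difference of -0.53 (SD 1.34, range -2.90 to 1.44) did not pass (exact permutation p = 0.1997, adjusted p = 0.1997).

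Both E-type cyclins fell, by unequal amounts. The change of Ccne1 minus that of Ccne2 was 0.75 (SD 0.63, above 0 in 11 of 12 lymphomas, exact permutation p = 0.00146, adjusted p = 0.00326), so Ccne2 fell more. Cdk1 fell by 0.60 more than Cdk2 on average (difference -0.60, SD 0.87, below 0 in 10 of 12, exact permutation p = 0.0352, adjusted p = 0.0439). That last call was lost when any 1 of 10 lymphomas was left out, with adjusted p up to 0.0879. The difference was -0.13 in the sen lymphomas (3 of 5 below 0, exact permutation adjusted p = 0.75) and -0.93 in the DOX lymphomas (7 of 7, exact permutation adjusted p = 0.0391). Without 403 and 5560 it was -0.86 (10 of 10, exact permutation adjusted p = 0.00977). Weak signals are compressed by RMA, so unequal changes of 2 probe sets need not be unequal changes of 2 transcripts.

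Marker levels of other cells were set beside the members' changes. Lymphoma 1467, where the fibroblast marker mean changed by -0.12, had the highest Ccnd1 change of all (1.67) and a Ccnd2 change of 1.07. Its macrophage marker mean changed by 1.94 and its neutrophil marker mean by 1.06. In deviations from the group means, the ADR array of 1467 did not correlate best with its own untreated array (r = 0.349). Across the 12 lymphomas the change of Ccnd1 had r = -0.263 with the fibroblast marker change (rho = -0.343, permutation p = 0.404, adjusted p = 0.738), and that of Ccnd2 r = 0.571 (rho = 0.531, permutation p = 0.0541, adjusted p = 0.324). When 403 and 1467, whose marker changes lay farthest out, were dropped, r was -0.353 for Ccnd1 and 0.510 for Ccnd2, and within the 7 DOX lymphomas -0.605 and 0.281 (exact permutation p = 0.152 and 0.529).

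Without 403 and 5560, which had the largest fibroblast marker changes, r moved to -0.711 for Ccnd1 (permutation p = 0.0259, adjusted p = 0.233) and to 0.220 for Ccnd2 (permutation p = 0.539, adjusted p = 0.905), so both sizes rest on those lymphomas.

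With the macrophage marker change, r lay between -0.489 (Ccnd1, permutation p = 0.106) and 0.321 (Ccnb2, permutation p = 0.305) over the 9 genes. For Ccnd2 it was 0.293 (permutation p = 0.357), and 0.774 without 403 and 5560 (permutation p = 0.00943, adjusted p = 0.17).

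Of 18 such relations, 9 genes with fibroblast and macrophage markers each, 0 passed after adjustment and 1 had an unadjusted p under 0.05. That was Cdk2 with the fibroblast markers (r = -0.618, rho = -0.685, permutation p = 0.0336, adjusted p = 0.324). Without 403 and 1467 it was r = -0.701, and within the DOX lymphomas r = -0.490 (exact permutation p = 0.244). Without 403 and 5560 it was r = -0.459 (permutation p = 0.178). Ccne1 with the fibroblast markers had r = -0.567 (permutation p = 0.054, adjusted p = 0.324), and -0.587 with arrays centred on their medians (permutation p = 0.0444, adjusted p = 0.338).

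**Figure D4:**
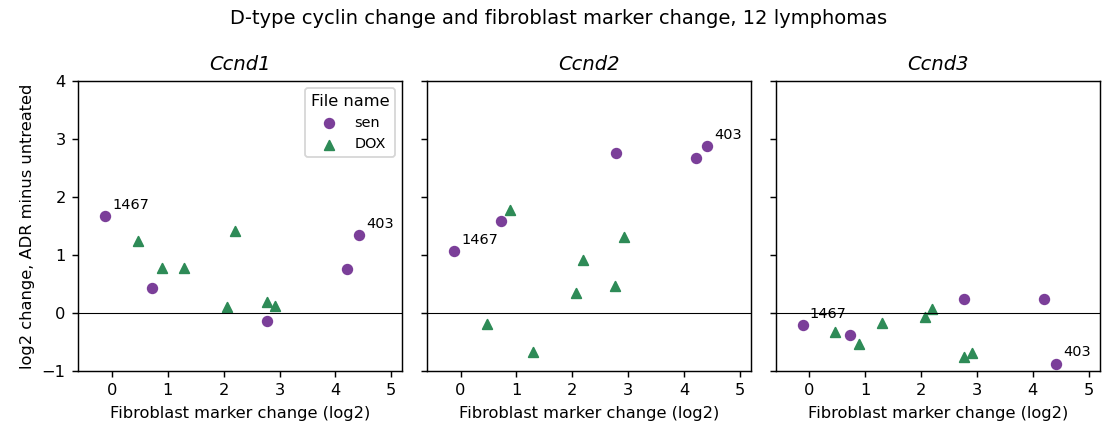
Log2 change of the main probe set of Ccnd1, Ccnd2 and Ccnd3 (vertical axis) against the change of the fibroblast marker mean (horizontal axis) in 12 lymphomas; circles and triangles mark the sen and DOX file names. Lymphoma 1467, at a fibroblast marker change of -0.12, has the highest Ccnd1 change, and lymphoma 403, at 4.42, the highest Ccnd2 change.

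With the fibroblast marker mean of each array as a covariate, the fit called 3.04% of all single-gene probe sets lower and 1.85% higher. Ccna2 (-2.23, adjusted p = 0.00336), Ccnb2 (-2.69, 0.00562), Cdk1 (-2.22, 0.0035) and Cdk2 (-0.78, 0.0088) stayed lower in it. Ccne1 (-0.53, adjusted p = 0.0804) and Ccne2 (-1.20, 0.0685) were no longer called. Ccnd1 was estimated at 0.94 (adjusted p = 0.0704) and Ccnd2 at 0.30 (adjusted p = 0.791), and 1 Ccnd1 probe set, the second, kept its call (adjusted p = 0.0279). The second Ccne1 probe set kept its call too (-0.75, adjusted p = 0.0311). When macrophage markers were added as a further covariate, limma called 0 of 34945 probe sets, with 4196 at an unadjusted p under 0.05, 11 of them among the 22. Estimates in that fit were -2.33 for Ccna2, -3.27 for Ccnb2, -2.25 for Cdk1, 1.48 for Ccnd1 and -0.30 for Ccnd2. The marker means themselves changed with treatment, macrophage by 0.49 to 3.04 and fibroblast by -0.12 to 4.42 per lymphoma. These fits therefore cannot separate a treatment effect from a marker effect, and a lost call does not show that a change was absent.

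The 5 lymphomas with "sen" and the 7 with "DOX" in their file names were also fitted apart. In both sets the 6 S phase and mitosis genes had mean changes below 0. They passed the test in the DOX set in 6 of 6 cases and in the sen set in 5 of 6, where Ccne1 did not (-0.76, adjusted p = 0.0713). Of all 34945 probe sets, the DOX fit called 2624 lower and 2552 higher, and the sen fit 893 lower and 457 higher. Ccnd1 changed by 0.81 in the sen set, which did not pass (adjusted p = 0.154), and by 0.65 in the DOX set, which did (adjusted p = 0.0371). Ccnd2 changed by 2.19 in the sen set, which passed (adjusted p = 0.0252), and by 0.56 in the DOX set, which did not (adjusted p = 0.209). Ccnd2 changes ran from 1.07 to 2.87 in sen lymphomas and from -0.67 to 1.78 in DOX lymphomas. The limma test of that difference gave 1.63 with an unadjusted p of 0.00274 and an adjusted p of 0.677. It called 0 of 34945 probe sets, 2467 of which, 6 of them among the 22, had an unadjusted p under 0.05. Those among the 22 read Ccnd2, except for a lone Ccnd3 probe set. Among the lymphomas with the lowest untreated Ccnd2, 403, 2581 and 5560 are in the sen set and 3802 is in the DOX set.

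Other genes around the cyclins were read from lists, counted on main probe sets, of which 12.5% of all 18193 genes were called lower and 13.4% higher. Of 10 genes listed as kinase activators or substrate adaptors, 10 fell, with a median change of -1.34. Adaptors such as Cdc20 (-1.63) and Skp2 (-1.31) are in this list, so the count does not cover activators alone. Plk1, a mitotic kinase that acts upstream of Cdk1, was 4.30-fold lower (adjusted p = 8.7e-06). Cdca3 was 4.48-fold lower on its main probe set, the only 1 of its 3 probe sets that was called. The phosphatase genes Cdc25a (-0.92), Cdc25b (-1.18) and Cdc25c (-1.36), whose products remove inhibitory phosphates from the kinases, were among them.

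In a mixed list of CDK inhibitors and other inhibitory factors, falls were more frequent than the 12.5% of all genes. Rises were not more frequent than the 13.4%. Of its 12 genes, 4 fell, 1 rose and 7 were not called, with a median change of -0.15. Among the CDK inhibitor genes in it, only Cdkn2d fell, and Cdkn1b, Cdkn1c, Cdkn2a, Cdkn2b and Cdkn2c were not called. The riser was Cdkn1a, which encodes the CDK inhibitor p21, 2.21-fold higher (11.57 ± 0.40 in ADR arrays and 10.43 ± 0.92 in untreated arrays, SD, n = 12, adjusted p = 0.00222). Cdkn3, a phosphatase that acts on the kinases, was 3.83-fold lower and Cdkn2d, encoding the inhibitor p19INK4d, 1.92-fold lower. The others that fell were Wee1 (-0.76), a kinase that holds Cdk1 inactive, and Fzr1 (-0.63), which directs mitotic cyclins to degradation.

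Among 13 E2F and pocket protein genes 7 fell and 0 rose, and among 10 factors of G2 and mitosis transcription 7 fell and 0 rose, with median changes of -0.42 and -0.52. E2f8 was 3.94-fold and E2f7 2.98-fold lower, and Mybl2 3.47-fold and Lin9, a subunit of MuvB, 2.25-fold lower. Of the NF-Y subunits, Nfya (-0.31) and Nfyb (-0.85) fell, and Nfyc had a change of 0.03 (adjusted p = 0.865).

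The remaining cyclins and kinases were called about as often as all genes, of which 12.5% were called lower and 13.4% higher. Of 11 other cyclins and kinases of the cell cycle and its relatives 2 fell, Ccnf (2.72-fold) and Cdk6 (1.71-fold, 9 of 12 lymphomas). In the same list 2 rose, Cdk14 (3.35-fold, called on 2 of its 3 probe sets) and Cdk18 (1.69-fold). Cdk4, which like Cdk6 partners the D-type cyclins, had a change of -0.30 (adjusted p = 0.0715). Of 23 cyclins and kinases of transcription and other processes 4 fell, Ccnh (1.56-fold), Cdk8 (1.27-fold), Ccnk (-0.30 on the log2 scale) and Mnat1 (-0.21), and 2 rose, Ccng1 1.80-fold and Cdk20 1.26-fold. Ccng1 is a known target of p53. The medians of these 2 lists were 0.03 and 0.02.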

How the data were processed

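Gene expression was measured on 24 Affymetrix mouse arrays, 12 of ADR-treated and 12 of untreated lymphoma cells. The deposited log2 values had been made by the authors with RMA in Partek, per the submitters' processing notes; the notes name no version or setting. No further normalization was applied. The number of arrays limits the precision.

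Of 45101 probe sets, 34945 carried 1 gene symbol in the platform annotation, 932 several and 9160 none, and 64 were controls. limma 3.58.1 (R 4.3.3) was fitted over the 34945 with the lymphoma as a block, with Benjamini-Hochberg adjustment and a threshold of 0.05. The lymphoma number in the titles pairs the arrays: deviations from the group means correlated within pairs at 0.257 to 0.589, and 10 of 12 pairs correlated best with their own partner. The pairs of lymphomas 1467 (0.349) and 5766 (0.589) did not. The fits were tested on simulated data. Python 3.11.15 with scipy 1.17.1 gave the exact sign-flip tests and the permutation tests of correlations (100000 resamples, two-sided). Of the 7 pairs of related genes planned, the pairs with Ccnb1 could not be tested, and 5 remained.

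The members and all lists were chosen with earlier results of these data known. Named were all members, the 2 called genes with the largest fall and the 2 with the largest rise of each other list, Cdkn1a and Mki67, and the 3 genes most alike to each member. The Cdc25 genes, Cdc20, Skp2, Wee1, Fzr1, Cdk4, Ccnk, Mnat1, the NF-Y genes and the single marker genes were named after their values were seen. So were the CDK inhibitor genes that were not called. Promoter sequences are RefSeq's for GRCm38.p6. Alternatives covered the block, centring, quantile normalization, dim probe sets, the choice of probe set, moderation, marker covariates, each set of file names and leaving out each lymphoma.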

Additional observations from a re-analysis of the deposited data

How the results depend on the processing

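The falls of Ccna2, Ccnb2, Cdk1 and Cdk2 passed in 23 of 24 other settings, of Ccne2 in 22 and of Ccne1 in 21, and all 6 passed whichever lymphoma was left out. Ccnd1 passed in 19 and Ccnd2 in 20. These settings share arrays, many leave out a single lymphoma, and the choice of probe set cannot alter a gene with 1 probe set. The counts are therefore not independent support. With both marker means as covariates, 0 probe sets and 0 genes of the members were called lower or higher. None of the 6 pathway lists had a called gene. The Ccnd2 estimate was then -0.30 (limma adjusted p = 0.913), which does not pass in either direction. Both means changed with treatment, so these lost calls do not show that changes were absent. With the fibroblast mean alone, 1 of 22 member probe sets and 0 member genes were called higher. Of all 34945 single-gene probe sets, 1062 were then called lower and 648 higher. Of the other cell-cycle cyclins and kinases 1 was then lower and 1 higher, of the transcription cyclins and kinases 0 and 1, of the inhibitors 0 higher, and of the E2F and pocket genes 3 lower.

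Without the replicate block, that is without pairing, 2 of 22 member probe sets and 0 member genes were called higher. The limma adjusted p was 0.051 for Ccnd1 and 0.121 for Ccnd2. Of all 34945 probe sets, 2821 were then called lower and 2371 higher. The other cell-cycle cyclins then had 1 lower and 1 higher and the transcription list 2 lower and 1 higher. Trend and robust moderation gave 2 lower in the transcription list, and 4237 lower among all 34945 probe sets. With the probe set of largest variance, 1 member gene was higher and Ccnd1 minus Ccnd2 was -1.28 (exact permutation adjusted p = 0.0425). In the DOX lymphomas alone, 2 of 22 member probe sets and 1 gene were higher, beside 2552 of all 34945 probe sets. Ccnd2 minus Ccnd3 was then 0.92 and Ccne1 minus Ccne2 0.51 (both exact permutation adjusted p = 0.0781). In the sen lymphomas alone, 5 of 22 member probe sets and 1 gene were higher, beside 457 of all 34945 probe sets. The pair test in that set cannot give a p below 0.0625.

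Cdk1 minus Cdk2 was -0.58 after quantile normalization (exact permutation adjusted p = 0.0549) and ran from -0.74 to -0.44 when 1 lymphoma was left out. Ccnd3 passed with arrays centred on medians (-0.31, adjusted p = 0.0408), with dim probe sets left out (0.0451) and without lymphoma 2581 (0.0336) or 5560 (0.0333). The cause of these differences was not tested, and the fits of the sen or DOX lymphomas alone also held fewer lymphomas. Near the floor, RMA limits what can be read from Cdk2's second and Ccnd3's dimmest probe set.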
